A study of Homo sapiens with 12 samples.

Results

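Regions recurrent with even probes alone are stretches of the human genome where each of the 3 libraries made with even-numbered probes gave a peak and no library made with odd-numbered or lacZ probes did. Chromatin isolation by RNA purification and sequencing (ChIRP-seq) was run on Jurkat, an established human T-cell leukaemia line that, per the labels' protocols, stably expressed the long non-coding RNA SLEAR in all samples, controls included. The sources used here do not say which promoter drove it or whether the cells were 1 clone. The labels name 12 samples, 3 each of input, lacZ, odd and even, and the 9 peak lists of the lacZ, odd and even samples were used. Peaks of these lists on chromosomes 1 to 22 and X were joined into one region where they overlapped by at least 1 base, which gave 357901 regions. Of these, 61807 had a peak in 3 of 3 even lists, in no odd list and in no lacZ list, 17.3% of all regions. The mirrored rule gave 51989 regions for odd probes (14.5%) and 21146 for lacZ probes (5.91%). These shares are what the rules themselves select and carry no test.

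In ChIRP, biotinylated DNA oligonucleotides pair with an RNA in crosslinked chromatin and are pulled down with whatever DNA is held nearby. The oligonucleotides are numbered along the RNA and split into an odd and an even pool with no oligonucleotide in common. A place where the RNA sits on chromatin can be recovered by both pools, whereas a place recovered by 1 pool alone is one that the other pool, aimed at the same RNA, did not return. The lacZ pool targets a bacterial RNA that human cells lack. Since the lists hold positions and no gene names, the regions are named by their position on hg19, and no sequence was read for them.

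The even lists held 94119, 90179 and 124191 peaks on these chromosomes in replicates 1, 2 and 3, the odd lists 66336, 105957 and 117145, and the lacZ lists 46560, 90804 and 26460. Total reads are not in the lists, so depth is unknown and no interval for counting error was computed. Nothing in the labels says that the libraries numbered 1 to 3 came from separate cultures, so spreads between them may be technical.

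The question of whether these sites return in a library that had no part in choosing them was put to each replicate number in turn. Regions were built from the 6 lists not carrying that number and chosen where both remaining even lists, and no remaining odd or lacZ list, had a peak. Sites chosen in this way were found again in the even list left out far more often than in the odd or lacZ list left out. For even replicate 1 the share was 86.6% of 71896 regions, for replicate 2 it was 84.5% of 75475, and for replicate 3 it was 95.6% of 65776. Any region of the 6 lists, chosen or not, had a peak in these lists in 24.9%, 28.3% and 31.3% of cases. The left-out odd lists returned 0.139%, 0.957% and 1.16% of the chosen regions, against 18.6%, 30.4% and 30.1% of any region. The left-out lacZ lists returned 0.10%, 1.78% and 0.0274%, against 12.8%, 16.9% and 8.59%. Every even list lay above every odd and every lacZ list.

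The mean share was 88.9% ± 5.90 for even lists, 0.751% ± 0.539 for odd lists and 0.637% ± 0.994 for lacZ lists (SD, n = 3 each). The difference was 88.1 percentage points from odd and 88.2 from lacZ (exact permutation test, two-sided, p = 0.1 each, the smallest that 3 against 3 allows). Each list also helped to choose regions in the other rounds, so the 3 shares of a set are not independent. A choice by even peaks favours the left-out even list wherever libraries repeat, so this p-value cannot show more than that the even lists repeat. Mirrored shares for regions chosen by odd or lacZ peaks were not computed, so the even share is not shown to be particular to even probes. Part of the low odd and lacZ shares follows from the choice, which had already removed regions with a peak in the other odd and lacZ lists. With regions chosen by the 2 remaining even lists alone, whatever the odd and lacZ lists showed, the even lists returned 86.8%, 84.7% and 95.6%, the odd lists 3.71%, 5.52% and 5.85%, and the lacZ lists 2.07%, 3.69% and 1.25%. That choice was added after the data had been seen.

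**Figure D1:**
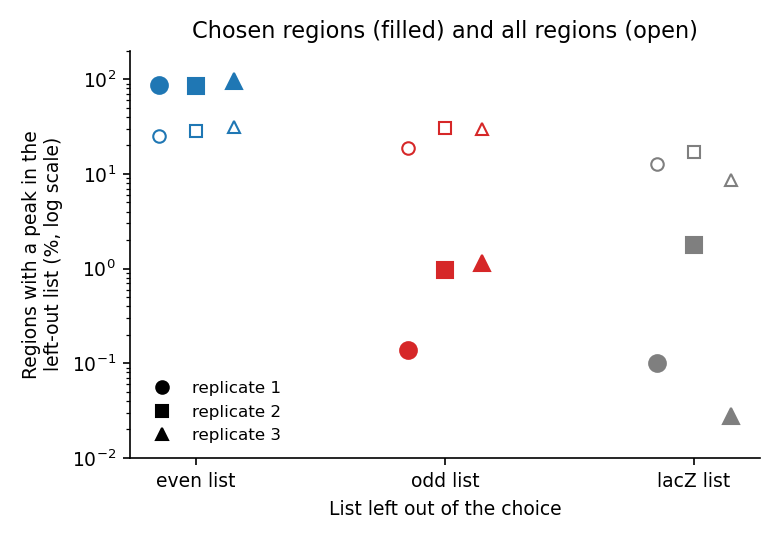
Share of regions (percent, log scale) with a peak in a list that was not used to choose them, for even, odd and lacZ lists; each symbol is 1 replicate number. Filled symbols are regions chosen with the other lists as recurrent with even probes alone and open symbols are all regions of those lists. The 3 filled even symbols lie between 84.5% and 95.6%, all filled odd and lacZ symbols at or below 1.78%.

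How often a chosen site came back depended on its strength in the 2 even lists that chose it. In the 25% of regions with the lowest mean pileup percentile, 57.7%, 56.5% and 85.5% of regions were found in even replicate 1, 2 and 3 when each was left out. The next 25% gave 89.3%, 83.7% and 97.1%, and those after it 99.2%, 97.7% and 99.8%. Among the 25% with the highest percentile, 17971 of 17974, 18861 of 18869 and 16441 of 16444 regions were found. Weak sites were thus the ones that a single even library most often missed, and fewest were missed by replicate 3, whose list was the longest. Strength carried over as well, since regions of the highest 25% had a median percentile of 88.6, 88.1 and 92.3 in the left-out list, against 24.2, 25.2 and 42.1 for those of the lowest 25% that were found.

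The rule left a margin of sites on either side. In 24016 regions 2 of 3 even lists and no odd or lacZ list had a peak, with a median width of 333 bases. The missing list was replicate 2 in 11471 of them, replicate 1 in 9649 and replicate 3 in 2896. A further 44096 regions had a peak in 1 even list alone, with a median width of 268 bases. On the other side, 69242 regions had a peak in all 3 even lists, and the 61807 are 89.3% of them. An odd peak without a lacZ peak set 4692 regions (6.78%) outside the rule, a lacZ peak without an odd peak 2466 (3.56%), and peaks of both 277 (0.400%). Of those, 1331 had a peak in just 1 odd list and 1124 in just 1 lacZ list. Regions with 1 odd peak had a median width of 740 bases, those with 1 lacZ peak 741, against 590 for the even-only regions. A region spans all its merged peaks, so a peak of a further list can only widen it or leave it unchanged. The differences in width between these kinds of region thus follow in part from the merging.

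Even-only sites made up most of 2 even lists and close to 50% of the third: 61930 peaks or 65.8% of replicate 1, 62000 or 68.8% of replicate 2, and 61998 or 49.9% of replicate 3. Pileup, read as the number of fragments covering a peak's summit, was used to rank peaks within each list. The median pileup of peaks in even-only regions was 39, 41 and 35 fragments in replicates 1, 2 and 3, and that of the other peaks of the same lists 18, 18 and 13. Their median percentile was 62.3, 60.9 and 71.4, a mean of 64.9 ± 5.71 (SD, n = 3). These values describe the choice, since a strong peak recurs more easily, and they were not tested. Odd-only peaks had a median percentile of 54.3, 71.2 and 74.2 in their own lists and lacZ-only peaks 73.2, 86.3 and 52.97, so the 3 sets overlapped.

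Across each even list the share of peaks in even-only regions climbed with pileup and then levelled off. In the lowest 10% of the list it was 20.3%, 20.4% and 4.78% in replicates 1, 2 and 3. It reached 88.6%, 88.4% and 89.2% between the 80th and the 90th percentile. In the highest 10% it was lower again, at 83.6%, 83.5% and 85.2%. The same dip at the top was present in the odd lists, whose highest 10% held 79.5%, 82.5% and 83.3% odd-only peaks, and in lacZ replicates 1 and 3 but not in lacZ replicate 2. The strongest single peaks of the even lists were not even-only: the highest pileups were 3527, 4880 and 2825 fragments, and the highest in an even-only region 1514, 2205 and 1094.

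**Figure D2:**
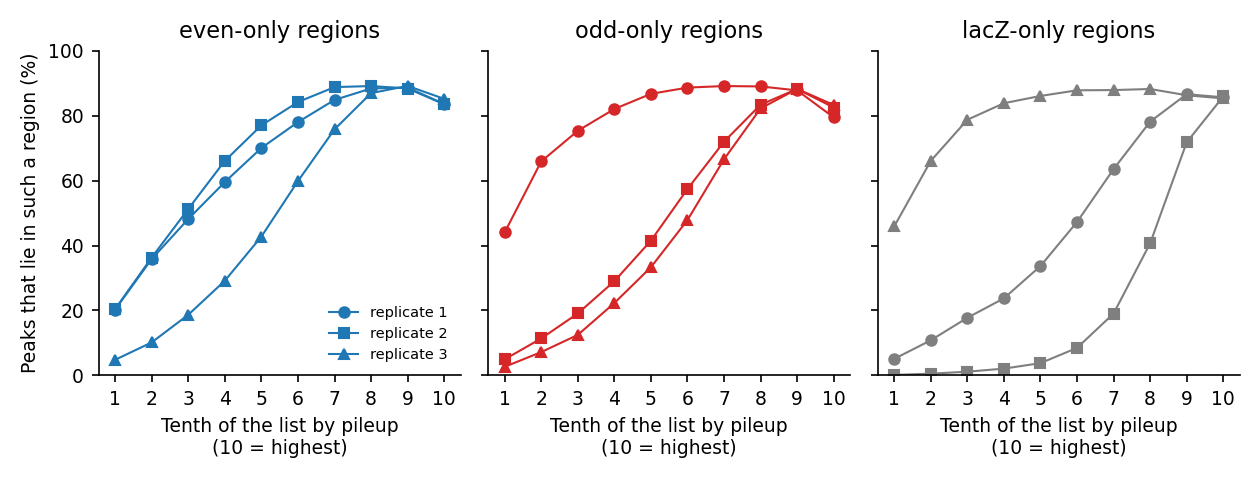
Share of each list's peaks (percent) that lie in a region recurrent with that probe set alone, in steps of 10% of the list ranked by pileup; each line is 1 replicate, with panels for even, odd and lacZ lists. In the even lists the share runs from 4.78% to 20.4% in the lowest 10% up to 88.4% to 89.2% between the 80th and the 90th percentile, and is 83.5% to 85.2% in the highest 10%.

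The 3 even libraries ordered the sites alike. Over the 61807 regions, Spearman's rho of pileup was 0.89 between replicates 1 and 2, 0.88 between 1 and 3 and 0.88 between 2 and 3, a description across regions that share one choice and one genome. The median difference in percentile between 2 lists was 6.93 to 8.99. In 34359 regions (55.6%) the peak lay above the list's median pileup in all 3 lists, and in 10748 (17.4%) it lay at or below the median in all 3. Of the 6180 regions that ranked highest in an even list, the top 10% of members, 4564 (73.9%) were among them in all 3 lists.

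Even-only regions were narrow and single-peaked. Their widths had a median of 590 bases, 468 at the lower and 716 at the upper quartile, and 90% lay between 319 and 900 bases. In the plot of widths they showed a main mode at 550 to 600 bases and a smaller one at 300 to 350 bases. Together they covered 37.2 Mb. In 61428 of them (99.4%) each even list had exactly 1 peak. The summits of the 3 lists lay within 100 bases of each other in 59115 regions (95.6%), with a median spread of 43 bases. Within a peak the summit sat close to the middle, at a median of 49.3% to 49.5% of the length in the 3 lists.

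Length followed strength. Peaks in the lowest 25% by pileup among even-only sites had a median length of 320, 300 and 347 bases in replicates 1, 2 and 3, and those in the highest 25% 713, 700 and 713. Spearman's rho of length and pileup across these peaks was 0.76, 0.79 and 0.75. Both values come from the same fragments and are given as a description.

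In peak length the even-only sites overlapped with both mirrored sets in the lists as deposited. The median length of a peak in an even-only region was 500, 467 and 527.5 bases in the 3 even lists, and that in an odd-only region 423, 501 and 521 in the 3 odd lists. The means were 498 ± 30.3 and 482 ± 51.8 (SD, n = 3), a difference of 16.5 bases (exact permutation test, two-sided, p = 0.7). In lacZ-only regions the lacZ lists had 578, 663.5 and 467 bases, a mean of 569.5 ± 98.5, and the difference, even minus lacZ, was -71.3 bases (exact permutation test, two-sided, p = 0.4). The lists of each pair of sets interleaved, and neither test can give a p below 0.1. Within each set the median length was greater in lists with more peaks. The rule also keeps strong, and so longer, peaks. These tests therefore cannot separate the probe set from the number of peaks in a list. When every list was held to the length of the shortest, the difference from odd was 31.3 bases (exact permutation p = 0.1, the smallest this test can give) and the difference from lacZ turned to 88.3 bases (exact permutation p = 0.2). Merged region widths had medians of 590, 583 and 684 bases for even-only, odd-only and lacZ-only regions.

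The sites were spread along every chromosome. Between one even-only region and the next, the gap had a median of 29844 bases, with quartiles of 12179 and 61510 bases. This spacing moved with the number of members: it was 52864 bases for the 35248 even-only regions found in the upper part of each list by fold, and 91124 bases for the 19585 found in lists of equal length. Gaps under 1 kb numbered 1167 (1.89%) and gaps under 10 kb 13025 (21.1%). Odd-only regions had a median gap of 35384 bases and lacZ-only regions 90089 bases, sets with fewer members. Divided by the mean gap, which allows for the number of members, the median was 0.63 for even-only, 0.63 for odd-only and 0.65 for lacZ-only regions. The 3 sets thus had a similar spread of gaps around their own mean. The nearest other even-only region lay a median of 14754 bases away, the nearest odd-only region 17699 and the nearest lacZ-only region 44973. Even-only regions outnumbered odd-only ones by 1.19 to 1 and lacZ-only ones by 2.92 to 1, and these distances do not allow for that. A region with any odd peak came within 1 kb of 6688 even-only regions (10.8%), and one with any lacZ peak within 1 kb of 4456 (7.21%). Both shares are given for even-only regions alone, with none for other regions beside them.

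**Figure D3:**
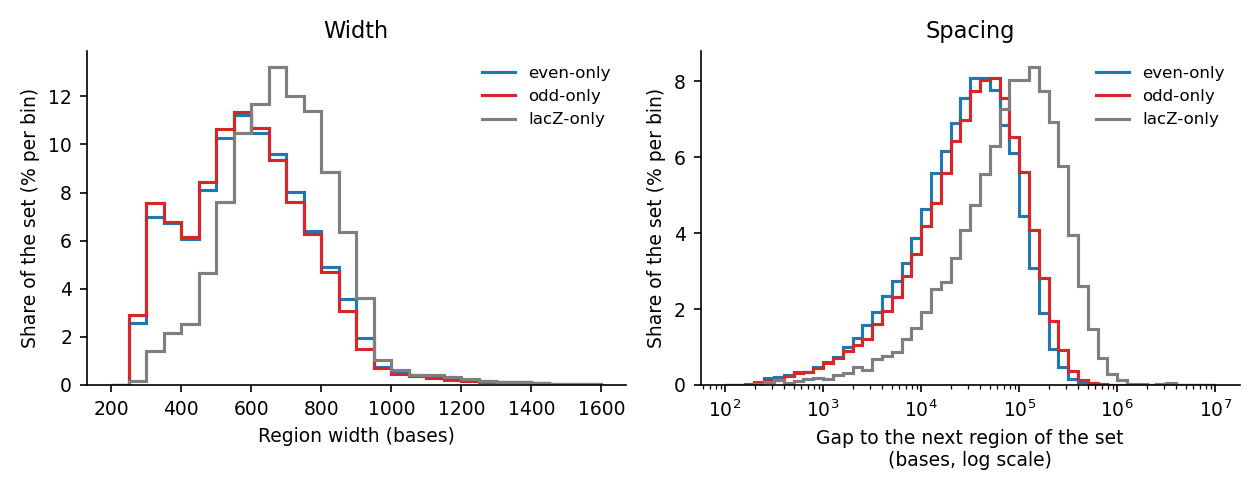
Left, width of regions in bases, and right, gap to the next region of the same set in bases (log scale), as the share of each set per bin, for even-only, odd-only and lacZ-only regions. Even-only and odd-only curves lie close together in both panels, with median widths of 590 and 583 bases and median gaps of 29844 and 35384 bases, and the lacZ-only curves lie to the right of both.

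In windows of 1 Mb the sites were also spread widely. Of 2888 windows with a region of any kind, 2884 held an even-only region and 4 held none. A window held 21.4 ± 7.06 even-only regions (SD over windows), with a median of 21, and 90% of windows held 10 to 33. The variance was 2.33 times the mean, against 2.41 for odd-only and 1.40 for lacZ-only regions. That ratio depends on the mean count per window, which differed between the sets. The densest 10% of windows, 289 in number, held 15.9% of all even-only regions, against 16.8% of odd-only and 18.2% of lacZ-only regions in the densest windows of each set. This share also depends on the number of members, and it was 19.8% for the 19585 even-only regions found in lists of equal length. It therefore does not rank the sets by how concentrated they were.

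The window with the most even-only regions lay on chromosome 20 from 24 to 25 Mb and held 45, beside 21 odd-only and 12 lacZ-only regions. Its peaks numbered 62, 58 and 84 in the even lists, 29, 52 and 48 in the odd lists and 25, 50 and 12 in the lacZ lists. Every even list had more peaks there than any odd or lacZ list. The choice of the window favours this, since each even-only region needs a peak in every even list. The peak numbers were not scaled to the length of the lists. On chromosome 8 the window from 10 to 11 Mb also held 45 even-only regions, with 31 odd-only and 11 lacZ-only. There the peak numbers overlapped, at 56, 60 and 73 in even and 43, 66 and 74 in odd lists. Chromosome 20 had 2 more windows among the 10 densest, from 59 to 60 Mb with 44 and from 4 to 5 Mb with 42 even-only regions.

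Chromosome 10 had 43 such regions from 6 to 7 Mb and 41 from 80 to 81 Mb. The windows at 161 to 162 Mb of chromosome 1 and at 150 to 151 Mb of chromosome 5 held 42 each. Those at 106 to 107 Mb of chromosome 14 and at 85 to 86 Mb of chromosome 16 held 41 each. In all 10 windows even-only regions outnumbered odd-only ones, by a factor of 1.21 to 2.26. Over the whole genome that factor was 1.19, and windows picked for many even-only regions lie above it by the way they were picked.

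Between chromosomes the density ranged from 12.7 even-only regions per window on X to 27.2 on chromosome 20. Chromosome 22 had 27.2, chromosome 17 had 24.7 and chromosome 16 had 24.4, while chromosome 4 had 16.3 and chromosome 18 had 18.9. Odd-only regions stood at 23.9 on chromosome 20, 22 on chromosome 22, 13.3 on chromosome 4 and 10.5 on X. The lacZ-only regions were also sparsest on X (4.23) and chromosome 4 (5.84) and densest on chromosome 20 (8.92). As a share of all regions of a chromosome, even-only regions made up 15.9% on X, 16.7% on chromosome 4 and 18.9% on chromosome 22, with the other chromosomes between. The factor of even-only over odd-only regions was lowest on chromosome 21 at 1.05 and highest on chromosome 3 at 1.26.

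**Figure D4:**
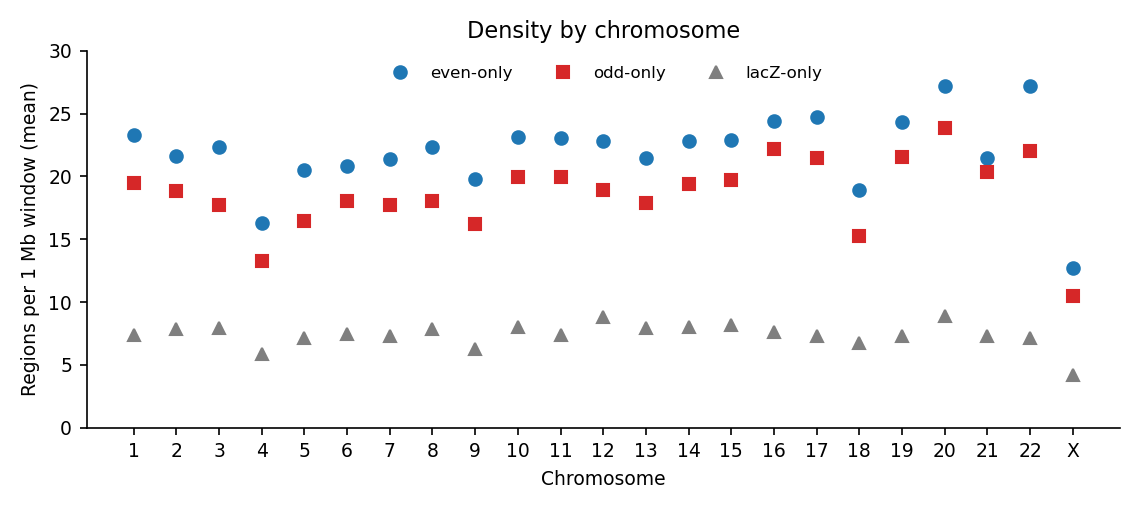
Mean number of even-only, odd-only and lacZ-only regions per 1 Mb window on each chromosome. Even-only regions run from 12.7 per window on X to 27.2 on chromosome 20, and all 3 sets are lowest on X and chromosome 4.

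Strength varied between chromosomes along with density. The median mean percentile of pileup was 53.0 on X and 57.5 on chromosome 4, against 68.7 on chromosome 19 and 68.4 on chromosome 20. In the single lists X had the lowest median, with 48.9, 50.3 and 63.9 in even replicates 1, 2 and 3, and chromosome 19 had 69.4, 66.7 and 73.1. Widths were nearly level, from a median of 577 bases on chromosome 17 to 603 on chromosome 18. Copy number of each chromosome in these cells and its part in density or pileup was not tested.

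The strongest even-only site, by mean percentile of pileup, lay near the end of the short arm of chromosome 4, from 66675 to 67621, a region of 947 bases. Its summit pileup was 1514, 2205 and 1094 fragments in even replicates 1, 2 and 3, rank 5, 5 and 6 of all peaks in those lists. The authors' fold enrichment there was 410, 341 and 225. The nearest lacZ peak region began 19 bases away, so this site met the rule by a narrow margin. The nearest odd peak region was 19958 bases away.

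Next came chr7:1900700-1901967, with 1195, 1562 and 606 fragments and a fold of 282, 356 and 209. An odd peak region lay 618 bases from it. The third site, chr9:68426771-68427510, had 1116, 1264 and 887 fragments and a fold of 101, 124 and 155. The region chr16:33236954-33241446, 4493 bases wide, had 1277, 1486 and 490 fragments and a fold of 77.5, 97.1 and 109. The fifth, chr10:35155443-35156360, had 753, 923 and 535 fragments and a fold of 181, 366 and 298. In each of these sites replicate 2 was the highest and replicate 3 the lowest, and this held in 20 and 19 of the 20 strongest sites.

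The 20 strongest sites lay on 14 chromosomes and had a mean percentile from 99.93 to 99.995. Their pileup ran from 523 to 1514 fragments in replicate 1, with a median of 656, from 730 to 2205 in replicate 2, with a median of 865, and from 388 to 1094 in replicate 3, with a median of 469. In 16 of them the width was between 740 and 966 bases, and the median over all 20 was 930.5. Summits of the 3 lists lay within 50 bases in 15 of 20 and within 100 bases in 19. The nearest odd peak region lay a median of 3025.5 bases from the 20 sites, and the nearest lacZ peak region 7427. Narrow margins were not limited to the first sites. An odd peak region lay 106 bases from chr11:61091234-61092182 and 318 bases from chr16:33293626-33295215.

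Besides the 5 sites above and 2 described next, the 20 included chr8:27394541-27395478, chr8:59465418-59466299, chr3:58241632-58242552, chr17:48476082-48477014, chr7:1229247-1230592 and chr5:10536551-10537467. The others were chr12:52661163-52662128, chr12:2577197-2578101, chr13:20808128-20809055, chr13:74642633-74643532, chr11:61091234-61092182, chr10:6568492-6569409 and chr2:232611087-232612036. These 13 had 523 to 821 fragments in replicate 1.

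Pileup and fold ranked many of these sites differently. Pileup divided by fold, by definition high where fold is low for the pileup, was read as the background that the caller set against a peak. It was compared with the median over all peaks of the list. At 4 of the 20 sites it was more than 2 times the median in all 3 even lists. At chr16:33293626-33295215 it was 13.3, 16.9 and 5.33 times the median, with 912, 996 and 388 fragments and a fold of 27.4, 22.97 and 41.8. By fold this site ranked 12767 among the even-only regions. Sites outside these 4 also moved, such as chr10:6568492-6569409, which ranked 241 by fold. The wide chromosome 16 site stood at 6.57, 5.96 and 2.57 times the median, that on chromosome 9 at 4.42, 3.97 and 3.299, and chr1:145043074-145043916 at 2.29, 2.99 and 2.11. These 4 lay 1.99 to 2.96 Mb from a stretch of at least 1 Mb in which no list had a peak. Of the 20 strongest by pileup, 8 were also among the 20 strongest by fold, and of the 100 strongest 49 were.

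**Figure D5:**
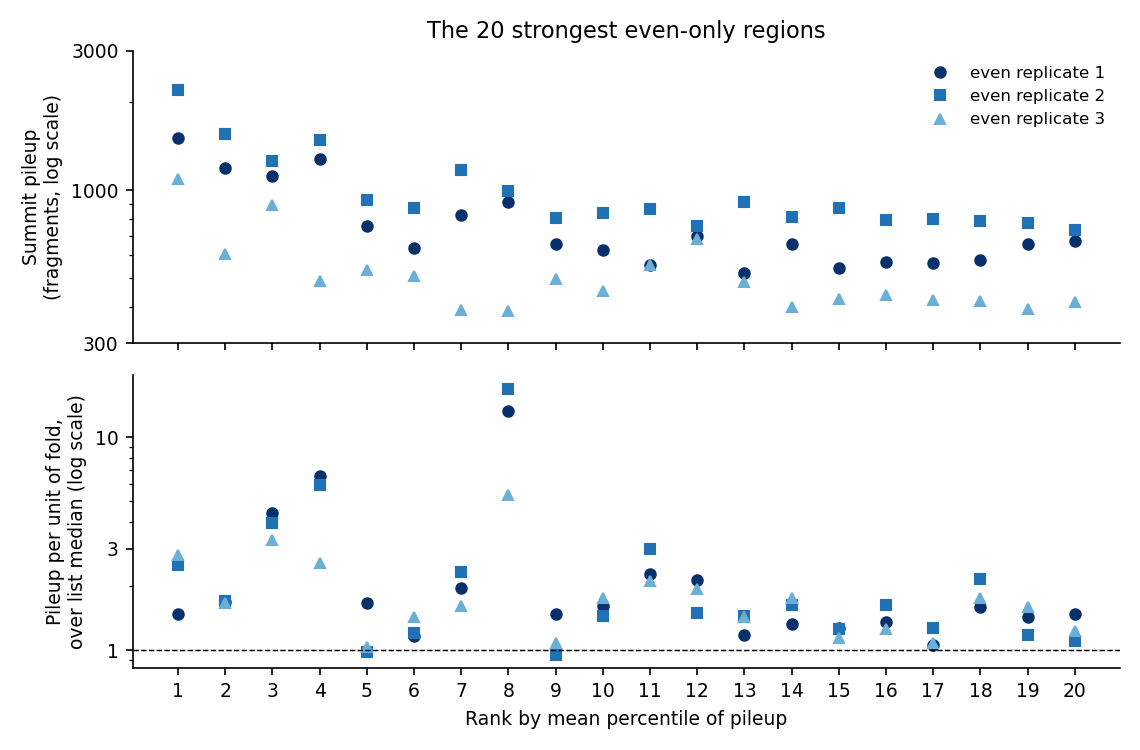
Upper panel, summit pileup in fragments (log scale) of the 20 strongest even-only regions in each even replicate; lower panel, pileup per unit of fold relative to the median of the list (log scale), both by rank of mean pileup percentile. Replicate 2 is the highest in all 20, and the sites ranked 3, 4, 8 and 11 stand above 2 in the lower panel in every replicate.

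The strongest sites lay near the outermost region of a chromosome in a larger share than the set as a whole, a difference that was not tested. That region is the first or last with a peak in any list and need not be the chromosome's end. The site chr13:20808128-20809055 was counted as near, at 1.79 Mb, although its position is far from the first base. Stretches without peaks before the first region or after the last were not counted as empty. Within 2 Mb of the outermost region of a chromosome lay 3.55% of all even-only regions, 5.80% of the 1000 strongest and 12 of the 100 strongest. Within 2 Mb of an empty stretch lay 2.75% of all, 3.80% of the 1000 strongest and 7 of the 100 strongest. For comparison, 3.61% of all merged regions lay that near an outermost region and 2.67% that near an empty stretch. The strongest were also wider, with a median of 904 bases in the first 1000. At the other extreme, the weakest even-only region, chr12:34626901-34627338, had 8, 8 and 5 fragments in the 3 lists.

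The widest even-only regions clustered on chromosome 2. The widest, chr2:87650285-87658524, spanned 8240 bases, and 2 others lay within 20 kb of it, chr2:87632692-87638750 and chr2:87644130-87649658. The fourth on that chromosome among the 5 widest was chr2:90480309-90485894, and the remaining one was chr15:20306342-20311875. In the widest, the highest summits of the 3 lists were up to 6204 bases apart, and 2 of the 3 lists had 2 peaks. Its pileup divided by fold was 5.34, 8.51 and 4.29 times the list median, and by fold it ranked 23774. At chr2:90480309-90485894, 0.0557 Mb from an empty stretch, the values were 19.3, 14.4 and 5.14 times. They were lower at chr2:87632692-87638750, with 3.19, 2.50 and 0.957 times. Just 26 even-only regions were wider than 2 kb and 1437 (2.32%) wider than 1 kb.

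Most even-only regions stood alone, and a few formed arrays with even steps. With neighbours joined where the gap was at most 10 kb, 38584 regions (62.4%) had no neighbour, and 488 chains of 4 or more held 2130 regions. The longest chain, chr19:36761605-36797379, had 13 regions of 263 to 383 bases. Their midpoints followed each other at a median step of 2544.5 bases, and 8 of the 12 steps were within 1% of it. Pileup was level along the array, at 71 to 96 fragments in even replicate 1, 69 to 103 in replicate 2 and 44 to 66 in replicate 3. Inside this array lay 1 odd-only and no lacZ-only region.

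Chromosome X had 2 of the 5 longest chains. In chrX:49299233-49366703, 8 regions followed at steps of 9473 to 9610 bases, all 7 within 1% of the median of 9547.5. In chrX:49159762-49238755, 10 regions had a median step of 9555 bases, and 5 of 9 steps were within 1% of it. Each of these chains also held 7 odd-only regions and no lacZ-only region. The even pileups were 31 to 49, 49 to 91 and 34 to 62 fragments in the first of them, in replicates 1, 2 and 3. The chain of 10 regions was less level, with 11 to 75, 11 to 141 and 6 to 63 fragments. Its steps ran from 2834.5 to 9782.5 bases.

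In chr1:161411320-161441478, 9 regions came in pairs, with 4 steps of 6246.5 to 6487.5 bases and 4 of 933.5 to 1124.5. Counted over 2 steps, the period was 7378.5 bases at the median and ranged from 7198.5 to 7601.5. These sites were strong, with a median of 164, 169 and 99 fragments in the 3 lists and a median mean percentile of 94.5, and the window of 1 Mb around them was among the 10 densest. The fifth chain, chr7:47414647-47460630, had 8 regions at uneven steps of 1706 to 10165 bases. Regular steps were looked for after the chains had been seen, and no test was made of how often they arise.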

How the data were processed

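Per the submitters' processing notes, FastQC was used for quality control and Bowtie2 for alignment, on the hg19 build; versions, the peak caller, its settings and its control were not given in the sources used here. Positions and lengths are in bases, counted from 1, and each sample has its own list. The file headers name a pileup, which was read here as the fragment coverage at a summit. Its values are whole numbers, and the header does not say whether they were scaled to depth. The fold enrichment, used as the authors deposited it, was read as a ratio of pileup to the caller's background. It served to describe and rank peaks within a list. The lists also give −log10 of the p-value and of the q-value, per the file headers.

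From these lists, regions, widths, gaps, windows of 1 Mb (a region belongs to the window of its midpoint) and percentiles within a list (tied peaks share the mean rank) were computed with Python 3.11.15, pandas 2.3.3 and numpy 2.4.6, and tested on simulated lists. Left-out shares and median lengths were compared over lists by exact permutation tests. Named in the text are the 20 regions with the highest mean percentile of pileup, the 5 widest, the 10 densest windows, the 5 windows with the highest ratio of even-only to odd-only regions, and the 5 longest chains. No window reached the 50 even-only regions first required for the ratio, so 20 was used, and the weakest region was named after its values were seen. The alternatives were stricter, equal or fewer lists, other merging, presence, windows and ranking, and a replicate block. The members and lists were chosen with earlier results of these data known. Chromosome Y was left out except where all sequences were used. The gene table at hand follows GRCh38, so its coordinates were not used.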

Additional observations from a re-analysis of the deposited data

Results flagged for a closer look

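Outside the assembled chromosomes, on sequences that hg19 keeps as random, unplaced or haplotype pieces and on mitochondrial DNA, the rule for even probes alone gave 190 regions, or 21.6% of the 880 merged there, against 17.3% of the merged regions on the chromosomes. The mirrored rule gave 105 regions (11.9%) for odd probes and 41 (4.66%) for the lacZ control probes, against 14.5% and 5.91% on the chromosomes, where even-only regions already outnumbered lacZ-only ones by 2.92 to 1. Of the 190, 34 lay on chr9_gl000199_random, where neither odd nor lacZ probes had such a region, and 22 on chr1_gl000192_random. Both were named for their high even-only counts, and the number of all merged regions on either is not given here. Differences between the probe sets outside the assembled chromosomes were not tested, and none of the sequences there were used for the comparisons above.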

How the results depend on the processing

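The left-out shares kept their direction in every alternative run, with differences of 75.05 to 91.3 points, the lowest, from odd, without replicate 2, where 1 even list chooses. With a replicate block (8 sign arrangements, smallest p 0.25) the differences of 88.1 and 88.2 points had p = 0.25 each in an exact test, and the length differences of 16.5 and -71.3 bases p = 0.75 and 0.5. Same-numbered lists correlated at -0.00727 to 0.294 in their window deviations (9 pairs, median 0.0352). Differently numbered lists correlated at -0.277 to 0.190 (18 pairs, median -0.0206). These ranges overlapped and do not settle whether the numbers pair the libraries, so results with and without the block are both given. The length difference from lacZ turned to 88.3 bases in lists of equal length. In the upper part of each list by fold, the even-only regions numbered 35248, with a median width of 693 bases, gap of 52864 bases and percentile of 80.8, and 16.7% lay in the densest windows. Lists of equal length gave 19585 regions, 767 bases, a gap of 91124 bases and 19.8%. Both hold fewer peaks by construction. The gap was 33541 bases with merging within 500 bases and 30350 with 50% of a region covered. With 2 of 3 even lists the width was 517 bases, the gap 21545 bases and the percentile 56.4. Windows of 0.5 and 2 Mb gave 17.3% and 14.9%. Leaving out replicates, or even replicates, gave widths of 530 to 540 bases, gaps of 24350.5 to 28340 bases and shares of 15.4% to 15.87%. Other causes were not tested. Depth is unknown, so weak sites missed by a list cannot be told from sites that were absent.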

Other observations

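Windows of 1 Mb with at least 20 even-only regions numbered 1742, and the median ratio of even-only to odd-only regions in them was 1.30. The highest ratio, 4.4, was on chromosome 14 from 26 to 27 Mb, with 22 even-only, 5 odd-only and 4 lacZ-only regions. Its peaks numbered 28, 26 and 40 in the even lists and 6, 20 and 27 in the odd lists, so the lists of the sets overlapped there. On chromosome 13 from 33 to 34 Mb there were 34 even-only and 8 odd-only regions, and every even list, with 41, 41 and 50 peaks, lay above every odd list, with 16, 17 and 23. Chromosome 18 from 72 to 73 Mb had 27 and 7, chromosome 3 from 29 to 30 Mb 23 and 6, and chromosome 9 from 124 to 125 Mb 38 and 10. Windows picked for a high ratio lie above the genome by the way they were picked, and their even peak numbers include the peaks of the regions that picked them.

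In 21 stretches of at least 1 Mb none of the 9 lists had a peak, so by definition no set has a region there. One of the shortest, chr9:21299453-22567830, is 1.27 Mb long and lies on the short arm of chromosome 9, away from the 18.2 Mb stretch on that chromosome from 47308567 to 65467840. Jurkat cells are known to lack the tumour suppressor gene CDKN2A, which lies on the short arm of chromosome 9. Whether the empty stretch and that loss are the same was not tested here.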
